A study of Mus musculus with 14 samples.

Results

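The expression of the nuclear genes for mitochondrial oxidative phosphorylation was examined in sorted mammary epithelial cells of the mouse. Members were all probes whose gene symbol began with Nduf followed by a, b, c, s or v, with Uqcr, with Cox4 to Cox8 or with Atp5, together with Sdha, Sdhb, Sdhc and Sdhd. They came to 135 of 45281 probes and to 87 of 19057 genes. Of these, 114 probes of 81 genes were detected on at least 3 of the 14 arrays and were tested, among 20906 probes of 11350 genes in all. The tested genes divided into 33 of complex I, 3 of complex II, 7 of complex III, 14 of complex IV and 16 of complex V. The other 8 were not subunits, namely 7 Ndufaf assembly factors and the pseudogene Ndufs5-ps. Ndufs1, Sdha, Ndufaf6, Cox6a2, Cox7b2 and Cox8c each had a probe that was not tested because it was detected on fewer than 3 arrays. Cox8a, Atp5g1 and Ndufa4l2 were not analysed here.

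All mice were FVB/NJ females, and the groups were cells from mice at day 12.5 of pregnancy and from virgin mice. From dissociated glands, cells without the leukocyte, endothelial and erythroid markers CD45, CD31 and TER119 were sorted by CD24 and CD29. The MaSC-enriched population, CD29-high and CD24+, holds the basal cells and the mammary stem cell activity, and the luminal population, CD29-low and CD24+, holds the ductal and alveolar lining cells. There were 4 arrays of pregnant MaSC-enriched, 3 of virgin MaSC-enriched, 4 of pregnant luminal and 3 of virgin luminal cells. Each array carried RNA from a pool of mice, with up to 250 ng labelled after sorting at a purity above 90%, so that variation between single animals was not measured.

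Oxidative phosphorylation takes place in the inner mitochondrial membrane. Complex I accepts electrons from NADH and complex II from succinate. Complex III passes them on to cytochrome c, and complex IV gives them to oxygen. The proton gradient that complexes I, III and IV build is used by complex V, the ATP synthase. A small core of each proton pump is encoded by mitochondrial DNA, and the members here are the subunits encoded in the nucleus. Several complex IV subunits exist as paired isoforms, a widespread form and one that is typical of muscle, lung or testis. The lactating mammary gland is a tissue with a high demand for ATP, and alveolar cells acquire many mitochondria on the way to secretion.

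Depth has no meaning for arrays, and the number of arrays limits the precision. The share of all probes detected ran from 34.8% to 42.3% per array. Labelled populations carried their defining transcripts. Basal markers were higher in MaSC-enriched than luminal cells for 11 of 13 tested genes in pregnant mice and for 13 of 13 in virgin mice, and luminal markers were lower for 12 of 15 and for 14 of 15. Virgin MaSC-enriched arrays resembled each other least, with correlations across genes of 0.909 to 0.942 within the group, against 0.978 to 0.988 in pregnant MaSC-enriched arrays. Nearly all members were plainly expressed: 76 of the 81 tested genes were detected on every array, which is 93.8% of them, against 67% of all tested genes. The exceptions were Atp5k, Cox4i2, Cox8b, Ndufb11 and Uqcrfs1. All values below are log2 normalized intensities, and differences are in log2 units with the moderated standard error (SE) and the adjusted p of limma. Levels of different probes cannot be compared with each other. In sorted cells, fewer cells of a type and less RNA per cell cannot be told apart.

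Promoters of 5 members are given as examples. Cox7a1 and Cox7a2 are alternative isoforms of a single complex IV subunit, of which only Cox7a1 passed in a comparison, and Ndufb7, Ndufa11 and Uqcrc1 are members that rose in pregnant luminal cells. Each runs from 250 bases before the annotated start to 50 after it, 5′ to 3′ on the strand of the gene, from RefSeq (build GRCm38.p6). Their positions are chr7:30183921-30184220 on the plus strand for Cox7a1, chr9:79759804-79760103 on the minus strand for Cox7a2 and chr8:83566508-83566807 on the plus strand for Ndufb7. Ndufa11 lies at chr17:56717512-56717811 and Uqcrc1 at chr9:108936398-108936697, both on the plus strand. Capitals mark a match to a motif of NRF1 or of ETS factors.
Cox7a1: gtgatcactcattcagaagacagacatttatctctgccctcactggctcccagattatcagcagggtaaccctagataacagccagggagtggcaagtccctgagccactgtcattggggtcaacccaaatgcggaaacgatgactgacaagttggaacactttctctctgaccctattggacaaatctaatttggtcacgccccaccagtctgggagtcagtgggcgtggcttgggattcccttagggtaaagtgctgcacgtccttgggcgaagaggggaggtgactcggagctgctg
Cox7a2: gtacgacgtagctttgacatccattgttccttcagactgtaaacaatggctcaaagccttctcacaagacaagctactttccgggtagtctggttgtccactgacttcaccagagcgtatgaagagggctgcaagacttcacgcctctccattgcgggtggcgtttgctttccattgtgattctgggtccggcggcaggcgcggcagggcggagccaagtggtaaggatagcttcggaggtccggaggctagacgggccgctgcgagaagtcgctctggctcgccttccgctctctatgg
Ndufb7: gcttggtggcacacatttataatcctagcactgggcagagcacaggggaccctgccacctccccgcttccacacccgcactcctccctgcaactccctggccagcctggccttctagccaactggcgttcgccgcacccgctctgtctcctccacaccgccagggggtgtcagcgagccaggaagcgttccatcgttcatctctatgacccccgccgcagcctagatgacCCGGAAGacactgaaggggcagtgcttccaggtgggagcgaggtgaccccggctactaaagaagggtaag
Ndufa11: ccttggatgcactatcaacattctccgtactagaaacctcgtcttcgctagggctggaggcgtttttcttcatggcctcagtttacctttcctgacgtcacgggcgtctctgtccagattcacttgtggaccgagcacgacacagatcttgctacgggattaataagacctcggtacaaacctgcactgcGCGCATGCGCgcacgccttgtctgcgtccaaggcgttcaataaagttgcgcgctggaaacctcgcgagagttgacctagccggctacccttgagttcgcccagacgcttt
Uqcrc1: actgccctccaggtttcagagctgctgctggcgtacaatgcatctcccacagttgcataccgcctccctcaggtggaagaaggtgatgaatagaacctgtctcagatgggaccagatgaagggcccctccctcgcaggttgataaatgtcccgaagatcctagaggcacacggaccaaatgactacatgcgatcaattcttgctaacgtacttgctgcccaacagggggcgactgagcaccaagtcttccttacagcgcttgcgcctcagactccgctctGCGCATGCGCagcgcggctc
Exact matches were sought on both strands to GCGCATGCG (NRF1, a regulator of respiratory genes), CCGGAAG (the ETS family, which includes GABP), AAGATGGC (YY1) and TCAAGGTCA (estrogen-related receptors). The last 3 letters of the ETS string are the first of the YY1 string, and of the 2 members that held both, 0 had them joined in this way. A promoter was listed for 72 of the 87 members, and 34 of them, or 47.2%, held at least 1 of the 4 strings, against 18% of 17492 protein-coding genes with a promoter. The NRF1 string stood in 13.9% of members and 2.61% of protein-coding genes, the ETS string in 25% and 12.9%, the YY1 string in 15.3% and 3.57%, and the receptor string in 2.78% and 0.377%. Members were also somewhat richer in CG dinucleotides, with a median of 20 per promoter against 13 in protein-coding genes, and CpG content was not matched in these shares. By complex, the YY1 string was found in 7 of 31 complex I promoters and in 3 of 14 of complex V, and in none of complexes II, III and IV. Neither the Cox7a1 promoter, with 7 CG dinucleotides, nor the Cox7a2 promoter, with 20, held any of the 4 strings. The 34 tested members with a string in the promoter had a median difference of 0.40 between pregnant and virgin luminal cells, and the 36 without one had 0.31. Between MaSC-enriched and luminal cells of pregnant mice the median was -0.44 in both sets. A match is a string in this window and not a measured binding site.

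The members as a whole were highest in pregnant luminal cells and lowest in virgin MaSC-enriched cells. Each array was summarised by the median, over the 81 genes, of the deviation of a gene from its own mean over the 14 arrays. The summary was -0.14, -0.08, -0.06 and -0.11 in pregnant MaSC-enriched arrays and -0.13, -0.56 and -0.42 in virgin MaSC-enriched arrays. It was 0.26, 0.25, 0.27 and 0.59 in pregnant luminal arrays and 0.01, 0.10 and -0.06 in virgin luminal arrays. All pregnant luminal arrays thus lay above every other array, while pregnant and virgin MaSC-enriched arrays overlapped through virgin replicate 1. The arrays were spread over 4 chips. Virgin MaSC-enriched replicate 2, the lowest, was the only array on chip 2, so its value cannot be told apart from that chip. Of the pregnant MaSC-enriched arrays 3 were on chip 3, which held no virgin MaSC-enriched array. The group means were -0.09 ± 0.04 (SD, n = 4), -0.37 ± 0.22 (n = 3), 0.34 ± 0.16 (n = 4) and 0.02 ± 0.08 (n = 3) in the same order. Over all tested genes the same summary stayed between -0.083 and 0.068 on every array.

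**Figure D1:**
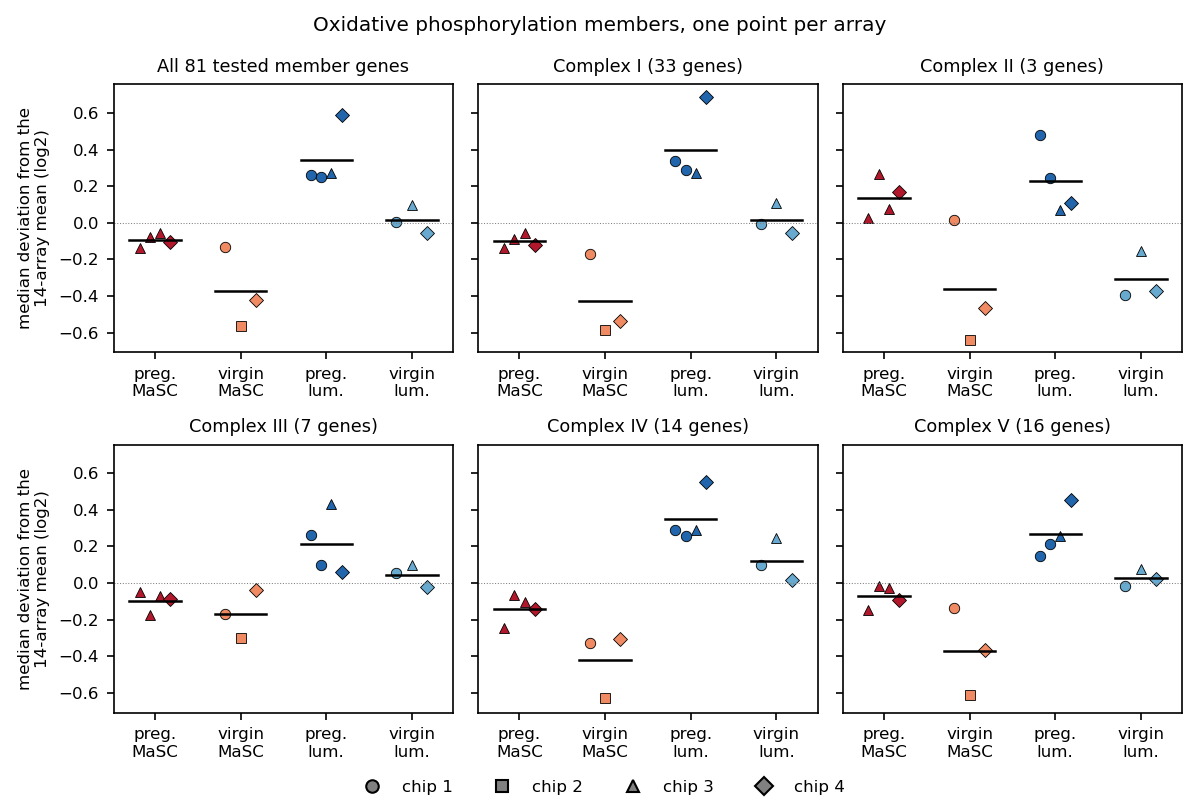
Median deviation of the member genes from their 14-array mean (log2, y axis) on each array, for all 81 tested genes and for each respiratory complex; columns are the 4 groups, symbols the 4 chips and bars the group means. Pregnant luminal arrays lie between 0.25 and 0.59 for all members, and virgin MaSC-enriched replicates 2 and 3 lie lowest at -0.56 and -0.42.

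The first comparison asked what pregnancy does to these genes in luminal cells. Of 81 member genes 12 rose and 1 fell, and 9 of the 12 that rose belong to complex I, which holds 33 of the 81. Among all tested genes 10.9% rose and 10.9% fell. The median difference of the members was 0.35, against 0.05 over all tested genes, and 69 of 81 were positive. Pregnant arrays lay wholly above virgin arrays for 38 members and wholly below for 1, where 18.2% and 15.6% of all tested genes did so. By complex the median was 0.40 for complex I, 0.36 for II, 0.25 for III, 0.33 for IV and 0.25 for V. None of the 16 complex V genes passed by its brightest probe, although 14 of them were positive. Of 4 tested probes of Atp5pb, with differences of 0.48 to 0.95, 1 passed. Within chips the median was 0.24 on chip 1, 0.16 on chip 3 and 0.66 on chip 4, and with chip as a block it was 0.36 with 16 members higher and 1 lower. The only pregnant luminal array on chip 4 was replicate 4, the highest for the members. Median scaling in place of quantile normalization gave a median of 0.705, with 0.778 for complex IV and 0.727 for complex I. With no filter on dim probes the median of complex IV was 0.025. The count of calls was 8 without virgin luminal replicate 1 and 36 with array weights. Over all 11350 tested genes 2839 rose and 2432 fell with array weights, against 1237 and 1232 without weights. Without virgin luminal replicate 1 the counts were 836 and 860 of 11229.

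Ndufb7, a subunit of the membrane arm of complex I, stood at 10.08, 10.17, 9.85 and 11.02 in pregnant luminal arrays, against 9.15, 9.15 and 9.08 in virgin luminal arrays. The groups did not overlap, and pregnant replicate 4 was the highest. The difference was 1.16 (SE 0.28, adjusted p = 0.00882 by limma), a 2.23-fold rise. Ndufa11, a membrane subunit of complex I, was at 12.49, 12.56, 12.31 and 13.07 in pregnant luminal cells and at 11.65, 11.63 and 11.73 in virgin luminal cells. It too was higher on every pregnant array, by 0.94 (SE 0.23, adjusted p = 0.00897). Ndufc2, at the tip of the membrane arm, stood at 13.41, 13.38, 13.07 and 13.46 in pregnant and at 12.50, 12.52 and 12.73 in virgin luminal cells. It rose by 0.75 (SE 0.19, adjusted p = 0.0096) with no overlap. The accessory subunits Ndufa5, Ndufb5 and Ndufb6 rose by 0.81, 0.89 and 0.72, and Ndufs6 and Ndufv3, which belong to the arm that takes up NADH, each rose by 0.69. The calls for Ndufb5, Ndufb6 and Ndufv3 each ended when certain single arrays were left out, in 5, 4 and 10 of 14 fits, with adjusted p up to 0.121, 0.083 and 0.188. The 3 tested Ndufv3 probes ran from -0.18 to 0.69, with 1 of them called. The Ndufv3 call also ended with cyclic loess, no filter on dim probes and the mean of its probes (adjusted p up to 0.273 by limma). Cyclic loess ended that of Ndufb6 as well (adjusted p = 0.0592).

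In the other complexes a single gene rose in each of II, III and IV. Uqcrc1, a structural core protein of complex III, stood at 12.74, 12.54, 12.83 and 12.93 in pregnant luminal arrays and at 11.97, 12.12 and 12.06 in virgin luminal arrays. All pregnant arrays were above all virgin ones, and the gene rose by 0.71 (SE 0.17, adjusted p = 0.00826). Its partner Uqcrc2 had a difference of 0.28 (SE 0.18, adjusted p = 0.303). Sdhb, the iron-sulfur subunit of complex II, was at 11.89, 11.76, 11.48 and 11.94 in pregnant and at 10.96, 11.22 and 11.04 in virgin luminal arrays. It rose by 0.70 (SE 0.22, adjusted p = 0.0339), but leaving out 1 array ended the call in 6 of 14 fits, with adjusted p up to 0.125. Cyclic loess and median scaling ended the Sdhb call as well (adjusted p up to 0.0737 by limma). Cox7a1, the heart and muscle isoform of a complex IV subunit, rose the most and is described with the other isoforms below.

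The probe of Ndufb11, a complex I subunit of the membrane arm, ran against the rest in both populations. It stood at 5.91, 6.07, 5.83 and 5.90 in pregnant MaSC-enriched arrays and at 6.91, 6.82 and 7.17 in virgin MaSC-enriched arrays. In luminal cells it was at 5.72, 5.36, 5.48 and 5.61 in pregnant arrays, none of them above background, and at 6.87, 7.40 and 7.49 in virgin arrays. All pregnant arrays were below all virgin arrays of the same population. It was at least 2.70-fold lower in pregnant luminal cells (adjusted p = 1.65e-05 by limma), where the pregnant level is taken as no lower than the dimmest probe well above background. In MaSC-enriched cells it fell by 1.04 (SE 0.19, adjusted p = 0.00591). A second Ndufb11 probe, also dim, differed by -0.16 in luminal cells (adjusted p = 0.792) and by -0.18 in MaSC-enriched cells (adjusted p = 0.801), so that the fall rests on 1 of 2 probes.

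Other features of the arrays also differed between pregnant and virgin luminal cells. Proliferation genes rose for 10 of 12 tested, with a summed normalized intensity of 11606 to 15250 in pregnant and 3229 to 5582 in virgin luminal arrays. Milk genes rose for 3 of 7, with sums of 92568 to 121574 in pregnant and 59435 to 79056 in virgin luminal arrays. Basal markers rose for 6 of 13 and none fell, with sums of 29861 to 37049 in pregnant and 5215 to 23106 in virgin luminal arrays. Luminal markers fell for 4 of 15 and none rose, with sums of 97708 to 115020 in pregnant and 117890 to 126712 in virgin luminal arrays. The share of probes detected was 34.8% to 38.6% in pregnant and 38.7% to 40.04% in virgin luminal arrays. The part of these differences in the rise of the members was not tested.

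**Figure D2:**
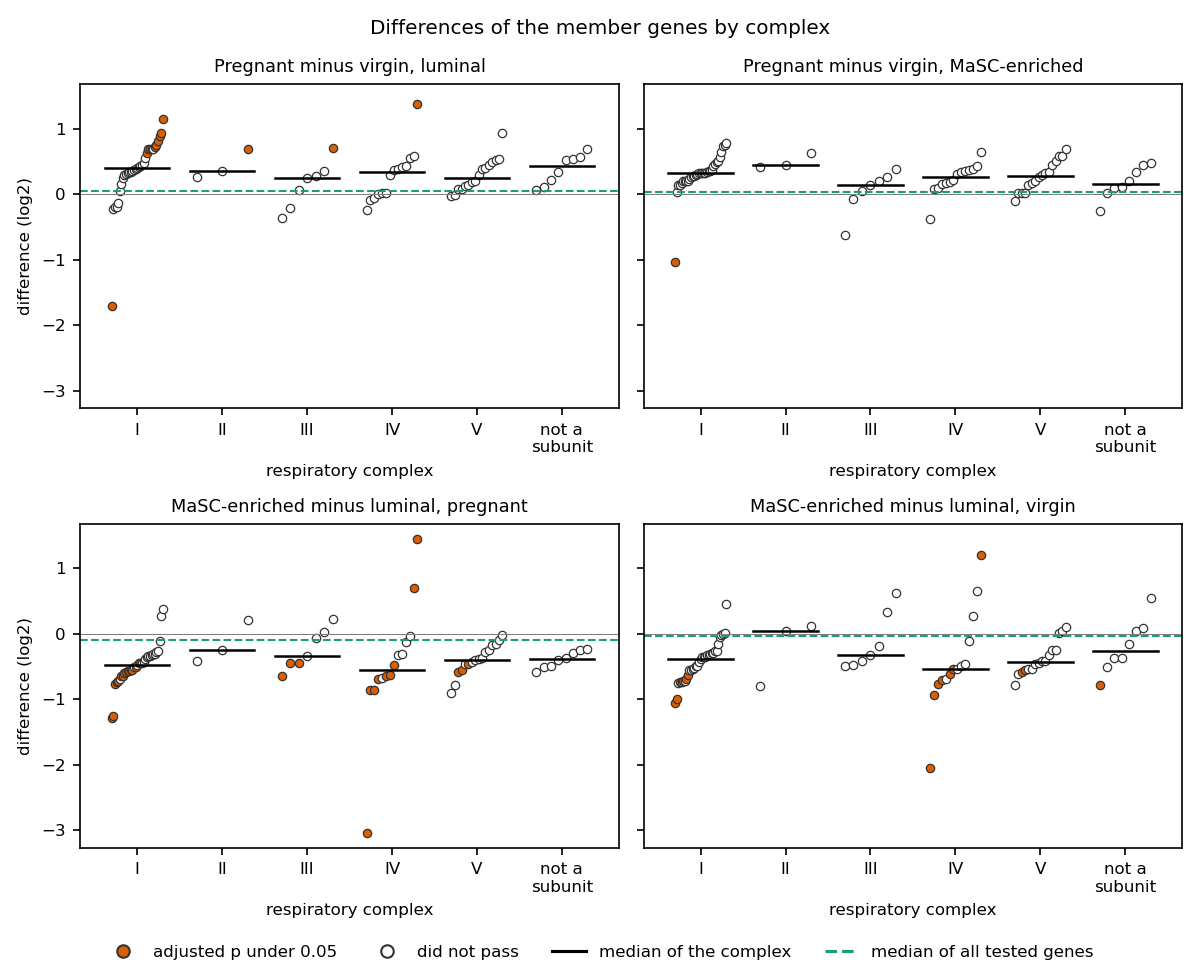
Difference of each tested member gene (log2, y axis) by respiratory complex in the 4 comparisons; filled points passed an adjusted p of 0.05, black bars are medians of the complex and dashed lines the median of all tested genes. In pregnant against virgin luminal cells 12 members rose and 1 fell, and in MaSC-enriched against luminal cells of pregnant mice 2 were higher and 27 lower.

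In MaSC-enriched cells the members shifted in the same direction with pregnancy, but single genes did not pass. No member rose past the threshold by limma and 1, Ndufb11, fell. An unadjusted p under 0.05 was reached by 12 of 81 members and by 2255 of 11350 tested genes. Among all tested genes 2.83% rose and 2.31% fell. The median difference was 0.29, against 0.03 over all tested genes, and 75 of 81 members were positive. Arrays of pregnant mice lay wholly above those of virgin mice for 18 members and wholly below for 1, against 9.45% and 7% of all tested genes. By complex the medians were 0.32 for complex I, 0.44 for II, 0.14 for III, 0.26 for IV and 0.27 for V. With chip as a block those of complexes III and V were -0.07 and 0.09, and median scaling gave 0.012 for III. Virgin replicates 2 and 3 set much of this difference: the median was 0.20 without virgin MaSC-enriched replicate 2 and 0.38 without replicate 1. On chip 4, the only chip with both states, it was 0.33. Median scaling gave a member median of 0.124 beside -0.08 over all tested genes, of which 179 then rose and 288 fell, where 321 rose and 262 fell with quantile normalization.

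The largest positive differences in MaSC-enriched cells were 0.79 for Ndufb9 and 0.76 for Ndufa11, both complex I subunits and both short of the threshold (adjusted p = 0.102 and 0.081 by limma). Ndufb9 is named here after its value was seen. Ndufa11 was at 12.81, 12.80, 12.87 and 13.03 in pregnant and at 12.44, 11.60 and 12.33 in virgin MaSC-enriched arrays. Its groups did not overlap, as in luminal cells. Atp5a1, the alpha subunit of the catalytic head of the ATP synthase, stood at 11.96, 11.89, 11.94 and 11.68 in pregnant and at 11.52, 10.97 and 11.05 in virgin MaSC-enriched arrays. The groups of this probe were also apart, with a difference of 0.69 (SE 0.22, adjusted p = 0.095), whereas a dimmer Atp5a1 probe differed by -0.65 (adjusted p = 0.257). Proliferation genes rose here for 5 of 12 and milk genes for 5 of 7, and their part was not tested.

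Whether pregnancy acted differently in the populations was tested directly as an interaction, the change with pregnancy in one population less the change in the other. No member passed the interaction by limma, in which 5.37% of all tested genes were higher and 3.39% lower. An unadjusted p under 0.05 was reached by 4 of 81 members and by 2611 of 11350 tested genes. The median interaction was -0.02 for the members and -0.02 for all tested genes. The member median depended on the processing, at -0.591 with median scaling, against -0.069 for all tested genes, and at -0.165 with chip as a block, against -0.036. Nearest to the threshold was Uqcrc1, which was at 12.41, 12.11, 12.27 and 12.43 in pregnant and 12.43, 12.23 and 12.48 in virgin MaSC-enriched arrays. These overlap, unlike the luminal arrays given above. Its interaction, taken as MaSC-enriched minus luminal, was -0.79 (SE 0.24, adjusted p = 0.064). It passed under 7 of 25 alternatives, with an adjusted p between 0.0144 and 0.148.

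The second pair of comparisons set MaSC-enriched against luminal cells, with the same luminal arrays as the comparison of pregnancy in luminal cells. In pregnant mice, of 81 genes, 27 were lower in MaSC-enriched cells and 2 higher, where 23% of all tested genes were lower and 20.2% higher. The median difference was -0.44, against -0.10 over all tested genes, and 74 members were negative. The 2 higher were Cox6b2 and Cox4i2, and Cox4i2 was too dim for a size to be given, as described below. Arrays of the populations did not overlap for 45 members that were lower and 3 that were higher, against 27.5% and 22.5% of all tested genes. Lower were 14 of 33 genes of complex I, 3 of 7 of complex III and 7 of 14 of complex IV. In complex V 3 of 16 were lower, a share below that of all tested genes, and in complex II none of 3. The medians were -0.48 for complex I, -0.24 for II, -0.34 for III, -0.56 for IV and -0.40 for V. That of complex IV was -0.40 with no background correction and -0.32 with no filter on dim probes, where complex I had -0.47 and -0.46. Within chips the median was -0.37 on chip 3 and -0.66 on chip 4, where pregnant luminal replicate 4 was the only luminal array of pregnant mice. The count of 29 calls in both directions was 16 without pregnant MaSC-enriched replicate 3, 13 with cyclic loess and 49 with array weights. Over all 11350 tested genes 2994 were higher and 3747 lower with array weights, against 2290 and 2615 without weights. With cyclic loess 2604 were higher and 1996 lower, and without pregnant MaSC-enriched replicate 3 the counts were 2009 and 2205 of 11269. Cyclic loess placed the median of all tested genes at 0.02 and that of the members at -0.289.

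Ndufv3, a small subunit beside the NADH-binding site of complex I, stood at 12.07, 12, 11.76 and 11.82 in pregnant MaSC-enriched arrays and at 12.80, 13.11, 13.17 and 13.63 in pregnant luminal arrays. In virgin mice it was at 11.55, 11.76 and 11.15 in MaSC-enriched and at 12.52, 12.78 and 12.16 in luminal arrays. The populations were separate in both states. The gene was lower in MaSC-enriched cells, with a difference of -1.26 in pregnant mice (SE 0.21, adjusted p = 0.000226 by limma) and of -1.002 in virgin mice (SE 0.25, adjusted p = 0.0062). A second well-expressed Ndufv3 probe gave -1.33 and -1.16, and a dim one -0.38 and -0.99. Ndufb7 differed by -1.28 in pregnant mice (SE 0.26, adjusted p = 0.00112), with 8.80, 9.03, 9.04 and 9.12 in MaSC-enriched arrays. In virgin mice its difference was -0.35 (SE 0.30, adjusted p = 0.428).

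The other complex I genes among the largest falls of pregnant mice were Ndufa3 (-0.77), Ndufb5 (-0.74) and Ndufab1 (-0.72), the last of which is also the mitochondrial acyl carrier protein. The call of Ndufb5 ended in 5 of 14 fits with 1 array left out, with adjusted p up to 0.0867, and with cyclic loess (adjusted p = 0.0632 by limma). In complex III, Uqcr11, a small subunit, was lower (difference -0.65, adjusted p = 0.00558 by limma). In complex IV, Cox5a, which binds near the cytochrome c side of the enzyme, stood at 13.24, 13.37, 13.24 and 13.04 in pregnant MaSC-enriched and at 13.87, 14.02, 14.22 and 14.19 in pregnant luminal arrays. The groups were apart, with a difference of -0.86 (SE 0.19, adjusted p = 0.00218). Cox7b was lower (difference -0.87, adjusted p = 0.0259), but leaving out 1 array ended this call in 4 of 14 fits, with adjusted p up to 0.0877. It also ended with cyclic loess and with no filter on dim probes (adjusted p up to 0.0762 by limma). Ndufb8 gave opposite calls from its 2 probes: the brighter fell (difference -0.60, adjusted p = 0.00634) and the dimmer was higher (0.92, adjusted p = 0.00791). It was the only one of 26 member genes with several tested probes to do so, and in this comparison 25 of the 26 had probes of one sign.

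In virgin mice the same comparison gave 15 member genes lower and 1 higher in MaSC-enriched cells, where 16.6% of all tested genes were lower and 15.5% higher. The median was -0.41, against -0.04 over all tested genes. Arrays did not overlap for 33 lower and 2 higher members, against 19.8% and 17.8%. The median of complex IV was -0.54 with 6 of 14 lower, that of complex V -0.43 and that of complex I -0.38 with 6 of 33 lower. Complex III stood at -0.32 with none lower, and the median of the 3 complex II genes was 0.04. The result leaned on virgin MaSC-enriched replicates 2 and 3. Chip 1, which held replicate 1, gave a median of -0.09 with 50 of 81 members negative, and chip 4 gave -0.32. The count of calls, 16 in both directions, was 7 without virgin luminal replicate 1 and 22 without virgin MaSC-enriched replicate 1. It was 7 with cyclic loess and 3 with median scaling, 2 of them lower and 1 higher, where the member median was -0.175. Over all 11350 tested genes 1936 were higher and 1615 lower with cyclic loess, and 1622 and 1509 with median scaling, against 1761 and 1888. They were 1427 and 1400 of 11229 without virgin luminal replicate 1, and 1658 and 1663 of 11261 without virgin MaSC-enriched replicate 1.

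Ndufa7, an accessory subunit of complex I, stood at 12.34, 12.14 and 12.41 in virgin MaSC-enriched arrays and at 13.45, 13.60 and 13.04 in virgin luminal arrays. The groups were apart, and the difference was -1.07 (SE 0.23, adjusted p = 0.00223 by limma). Cox7a2l, a factor that joins complexes III and IV into supercomplexes, was at 11.92, 11.79 and 11.80 in virgin MaSC-enriched and at 12.55, 12.42 and 12.67 in virgin luminal arrays. It was lower with no overlap (difference -0.71, SE 0.19, adjusted p = 0.00954), and in pregnant mice its difference was -0.13 (adjusted p = 0.573). Ndufs4, an accessory subunit whose loss in mice causes a fatal brain disease, differed by -0.39 in pregnant mice (adjusted p = 0.0863) and by -0.70 in virgin mice (adjusted p = 0.0143). Ndufa4, first described with complex I and now placed in complex IV, was lower in both, with differences of -0.63 in pregnant mice and -0.77 in virgin mice, and the virgin call was lost when replicate 2 of virgin MaSC-enriched cells was left out (adjusted p = 0.0522). Ndufa6 (-0.73), Ndufb10 (-0.74) and Cox7b (-0.93) passed as well, and so did Ndufaf1 (-0.79), the only one of the 7 assembly factors among the members to do so. Leaving out 1 array ended the calls of Ndufb10, Cox7b and Ndufaf1 in 9, 10 and 9 of 14 fits, with adjusted p up to 0.212, and that of Ndufa6 without virgin luminal replicate 1 (adjusted p = 0.0523). Median scaling ended the virgin calls of Ndufa7, Cox7a2l, Ndufs4 and Ndufa6 (adjusted p = 0.101, 0.271, 0.34 and 0.333 by limma). It also ended those of Ndufb10, Cox7b and Ndufaf1. The virgin call of Ndufa4 ended with cyclic loess, median scaling and chip as a block (adjusted p up to 0.63).

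The complex IV isoforms Cox7a1 and Cox6b2 differed between the populations in opposite directions. Cox7a1, the heart and muscle form, stood at 6.35, 7.47, 6.75 and 6.70 in pregnant MaSC-enriched arrays and at 6.72, 6.46 and 6.13 in virgin MaSC-enriched arrays. In luminal cells it was at 9.61, 9.67, 9.44 and 10.72 in pregnant and at 7.74, 8.997 and 8.71 in virgin arrays. Every luminal array was above every MaSC-enriched array, and every pregnant luminal array above every virgin luminal one. It was 8.26-fold lower in MaSC-enriched than luminal cells of pregnant mice (difference -3.05, SE 0.33, adjusted p = 3.2e-06 by limma) and 4.13-fold lower in virgin mice (-2.05, SE 0.39, adjusted p = 0.000817). With no background correction these differences were -2.25 and -1.30, and both calls remained. In luminal cells it rose 2.60-fold with pregnancy (1.38, SE 0.36, adjusted p = 0.0135), and the call was lost when virgin luminal replicate 1 was left out (adjusted p = 0.0938). In MaSC-enriched cells the pregnancy difference was 0.38 (SE 0.36, adjusted p = 0.626), and the interaction did not pass (-0.999, SE 0.51, adjusted p = 0.281).

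Cox7a2, the widespread form of the same subunit, did not share the rise with pregnancy in luminal cells. It was at 9.87, 10.05, 9.72 and 9.95 in pregnant MaSC-enriched and 10.21, 9.41 and 9.15 in virgin MaSC-enriched arrays, and at 9.97, 9.82, 10.08 and 10.94 in pregnant luminal and 10.29, 10.44 and 10.15 in virgin luminal arrays. Pregnant luminal arrays overlapped with those of all other groups. None of its differences passed, at -0.30 (SE 0.26, adjusted p = 0.392) between the populations of pregnant mice and -0.09 (SE 0.28, adjusted p = 0.882) with pregnancy in luminal cells. In virgin mice its MaSC-enriched arrays, at 9.15 to 10.21, tended to lie below its luminal arrays, at 10.15 to 10.44. That is the direction of Cox7a1, with overlap.

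Markers of skeletal muscle and of fat were examined beside Cox7a1. Of 12 skeletal muscle markers, 8 were tested and Ckm, Myh1, Myh4 and Casq1 were not. In pregnant against virgin luminal cells Mb rose and 4 fell, namely Acta1, Eno3, Tnnc2 and Tnni2, and summed intensities were 1219 to 1400 in pregnant and 1078 to 2770 in virgin luminal arrays. In MaSC-enriched against luminal cells of pregnant mice Acta1 was higher and Mylpf lower, with sums of 1550 to 1893 in MaSC-enriched and 1219 to 1400 in luminal arrays. In virgin mice Acta1, Mylpf and Tnnc2 were lower in MaSC-enriched cells and none of the 8 higher (median -0.80), with sums of 916 to 1328 in MaSC-enriched and 1078 to 2770 in luminal arrays. Of 9 adipocyte markers with a probe, 5 were tested. Ucp1, which defines brown fat, was not above background on any luminal array. Summed adipocyte markers were 1104 to 1601 in pregnant and 459 to 587 in virgin luminal arrays, and the sum followed Cidea, a lipid droplet protein, which was at 9.95, 10.05, 9.70 and 10.34 in pregnant luminal arrays and at 8.09, 6.82 and 7.53 in virgin luminal arrays. The part of these transcripts in the Cox7a1 result was not tested.

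Cox6b2, known as the testis form of a subunit on the outer face of complex IV, ran the other way. It stood at 7.64, 7.96, 8.20 and 8.40 in pregnant MaSC-enriched and 7.88, 7.92 and 7.77 in virgin MaSC-enriched arrays, and at 6.36, 6.37, 6.40 and 7.27 in pregnant luminal and 6.28, 7.10 and 6.59 in virgin luminal arrays. All MaSC-enriched arrays were above all luminal ones. The gene was 2.73-fold higher in MaSC-enriched cells of pregnant mice (1.45, SE 0.25, adjusted p = 0.000265 by limma) and 2.31-fold higher in virgin mice (1.21, SE 0.29, adjusted p = 0.00508), and it did not pass with pregnancy in either population. With no background correction the 2 differences were 0.88 and 0.71, and both calls remained. The widespread form Cox6b1 was lower in MaSC-enriched cells of pregnant mice (difference -0.69, SE 0.18, adjusted p = 0.00768). In virgin mice its difference was -0.47 (SE 0.21, adjusted p = 0.117), whereas a second, dimmer Cox6b1 probe passed with -0.75.

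**Figure D3:**
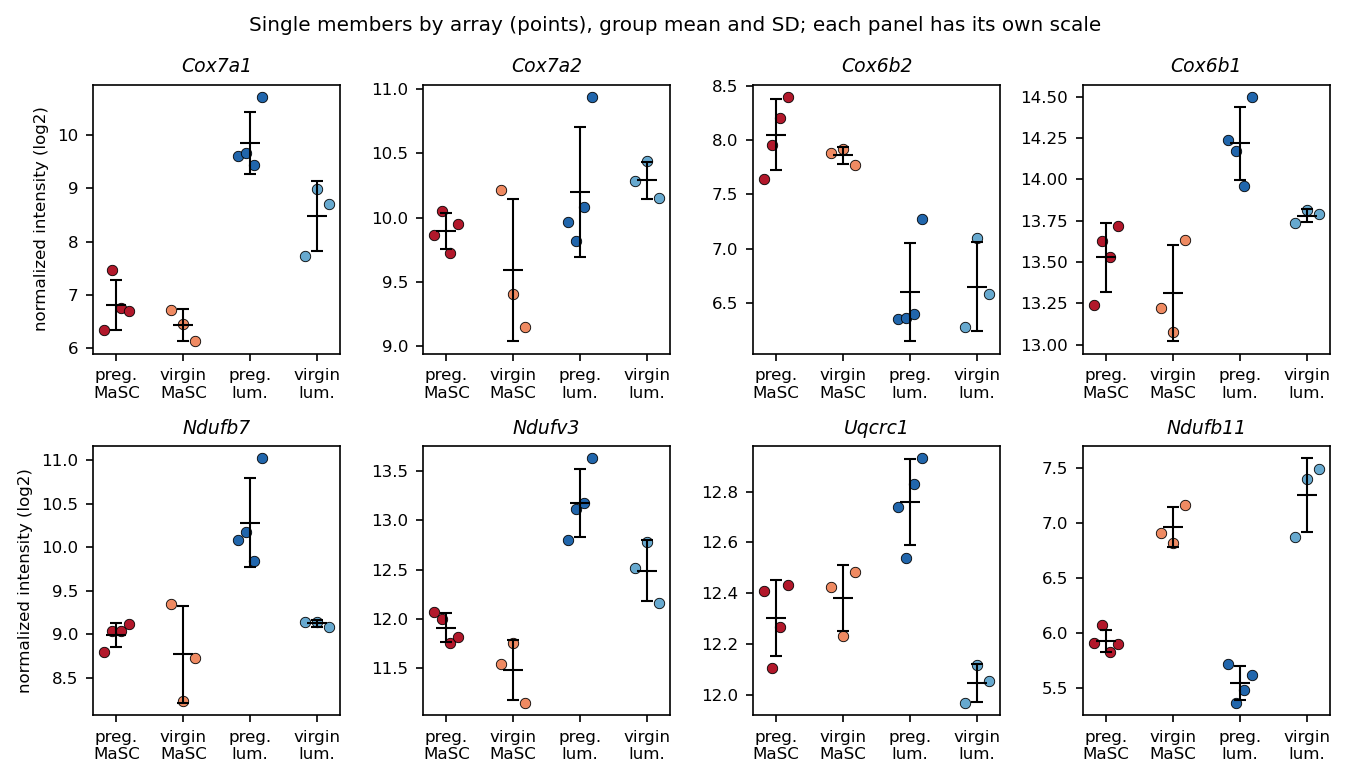
Normalized intensity (log2, y axis) of 8 members on each array in the 4 groups, with the group mean and SD as bars; every panel has its own scale. Cox7a1 reaches at most 7.47 on MaSC-enriched arrays and at least 7.74 on luminal arrays, and Cox6b2 has the opposite order.

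Of the other restricted forms, Cox4i2, a lung and smooth muscle isoform, was detected on 1 of 4 pregnant and 2 of 3 virgin MaSC-enriched arrays and on no luminal array. It counts as 1 of the 2 higher members in pregnant mice (adjusted p = 0.0405 by limma), having passed the filter through MaSC-enriched arrays. Its means of 5.50 in MaSC-enriched and 4.80 in luminal cells both lay under the background bound of 5.82, so no difference is given. The call ended in 7 of 11 fits with an array left out and under 4 of 9 other settings. Its widespread counterpart Cox4i1 had a difference of -0.32 (SE 0.17, adjusted p = 0.153). Cox8b, a muscle and brown fat form, was detected on 7 of 14 arrays and passed in no comparison. Cox5b and Cox6a1, both widespread, were lower in MaSC-enriched cells in pregnant mice (-0.48 and -0.64) and in virgin mice (-0.54 and -0.61). Leaving out 1 array ended the Cox5b call in 3 of 14 fits in pregnant mice (adjusted p up to 0.0617 by limma), and so did cyclic loess (0.0771). In virgin mice it ended the Cox5b call in 4 and the Cox6a1 call in 9 (adjusted p up to 0.0959 and 0.14). The virgin calls of both also ended with cyclic loess, median scaling and chip as a block, and that of Cox5b with the replicate block, with adjusted p up to 0.716. Atp5g2 and Atp5g3, which encode the same ring subunit of the ATP synthase, passed in no comparison, with differences of -0.18 and -0.16 in pregnant mice.

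Markers of cells other than epithelium were also compared between the populations. In pregnant mice 20.2% of all tested genes were higher in MaSC-enriched than luminal cells and 23% lower. Pericyte markers were higher in MaSC-enriched cells for 7 of 9, with sums of 1747 to 6750 against 1499 to 1880 in luminal arrays. Endothelial markers were higher for 6 of 7 (3439 to 12155 against 1587 to 2881) and fibroblast markers for 2 of 8 (23353 to 33988 against 3250 to 13871). Leukocyte markers were higher for 1 of 5, and of 2 tested erythroid genes Alas2 was lower. In virgin mice 6 of 9 pericyte, 1 of 7 endothelial and 1 of 8 fibroblast markers were higher, against 15.5% of all tested genes. Their part in the differences of the members, Cox4i2 included, was not tested.

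The core subunits carry the redox centres or the catalytic sites. In complex I, the flavin-binding subunit Ndufv1 and the iron-sulfur subunits Ndufv2 and Ndufs8 were lower in MaSC-enriched cells of pregnant mice, with differences of -0.45, -0.58 and -0.56. Leaving out 1 array ended these calls in 5, 5 and 3 of 14 fits, with adjusted p up to 0.0726. Cyclic loess ended all 3, chip as a block those of Ndufv1 and Ndufs8 and the replicate block that of Ndufv1, with adjusted p up to 0.187. Ndufs3 and Ndufs7 did not pass, at -0.36 and -0.58 (adjusted p = 0.0952 and 0.0622 by limma). With pregnancy in luminal cells none of the 5 passed, and their differences ran from 0.25 for Ndufs3 to 0.43 for Ndufv1. The membrane anchors of complex II, Sdhc and Sdhd, passed in no comparison. Uqcrfs1, the Rieske iron-sulfur protein of complex III, was too dim to follow, with detection on 7 of 14 arrays. In complex V, the catalytic beta subunit Atp5b differed by -0.02 (SE 0.16) between the populations of pregnant mice and by 0.14 (SE 0.18) with pregnancy in luminal cells, and it passed nowhere. The central stalk subunit Atp5c1 was lower in virgin MaSC-enriched cells (-0.59, adjusted p = 0.0481), and leaving out 1 array ended the call in 11 of 14 fits, with adjusted p up to 0.179. Cyclic loess, median scaling, array weights and the replicate block ended it too (adjusted p up to 0.579 by limma).

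Other mitochondrial gene lists gave context for these values, and their counts stand beside the shares of all tested genes given with each comparison above. Mitochondrial ribosomal proteins, which translate the subunits encoded in mitochondrial DNA, rose with pregnancy in luminal cells for 26 of 72 genes with none falling (median 0.53). In MaSC-enriched against luminal cells of pregnant mice 46 were lower and 1 higher (median -0.62), and in virgin mice 14 were lower and 1 higher (-0.38). Mrpl12 rose by 1.63 and Mrpl34 by 1.66 in pregnant luminal cells. With pregnancy in MaSC-enriched cells 2 rose, and 2 were lower in the interaction, Mrpl12 and Mrpl37. Counted anew with cyclic loess, 12 rose in pregnant luminal cells and 35 were lower in MaSC-enriched than luminal cells of pregnant mice. With median scaling these counts were 22 and 52. Cytosolic ribosomal proteins gave 1 fall and no rise among 56 with pregnancy in luminal cells (median 0.08), and 2 higher and 3 lower between the populations of pregnant mice (median -0.06). Their medians depended on the scaling, at 0.16 and 0.08 with cyclic loess and at 0.81 and -0.42 with median scaling, where 0 rose and 0 fell with pregnancy in luminal cells.

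Assembly factors outside the Ndufaf family rose in pregnant luminal cells for 8 of 24 (median 0.30) and were lower in MaSC-enriched than luminal cells of pregnant mice for 7, with none higher (median -0.30). Sdhaf1, needed to mature Sdhb, was at 11.10, 11.04, 11.21 and 11.52 in pregnant luminal arrays and at 9.67, 9.82 and 9.63 in virgin luminal arrays. It was higher on every pregnant array and rose by 1.51 (SE 0.27, adjusted p = 0.000883 by limma). Acad9, a complex I assembly factor, rose by 1.85, Cox10, which makes the haem of complex IV, by 1.16, and Bcs1l, which inserts the Rieske protein into complex III, by 1.01. The copper chaperone Cox17 was lower in MaSC-enriched cells of virgin mice (difference -1.24). Of the electron carriers and partners, Cyc1, the cytochrome subunit of complex III, was the only one of 14 to rise in pregnant luminal cells (0.78, SE 0.22, adjusted p = 0.0238), and 3 were lower and 1 higher in MaSC-enriched cells of pregnant mice.

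Enzymes that feed the chain were set beside the shares of all tested genes. With pregnancy in luminal cells 10.9% of all tested genes rose and 10.9% fell. In MaSC-enriched against luminal cells of pregnant mice 23% were lower and 20.2% higher. Of 16 genes of the tricarboxylic acid cycle and pyruvate dehydrogenase, 4 rose in pregnant luminal cells (median 0.56), and 5 were lower and 2 higher in MaSC-enriched than luminal cells of pregnant mice (median -0.34). Pcx, which makes oxaloacetate from pyruvate, was at 9.13, 9.45, 9.38 and 9.49 in pregnant and at 7.55, 6.61 and 7.27 in virgin luminal arrays. It rose by 2.22 (SE 0.23, adjusted p = 8.1e-06 by limma), with no overlap. The pyruvate dehydrogenase subunits Pdhb and Pdha1 rose by 1.09 and 0.73. In fatty acid oxidation none of 14 passed with pregnancy in luminal cells by limma, and 4 were lower in MaSC-enriched cells of pregnant mice, among them Cpt2, which regenerates acyl-CoA inside the mitochondrion (-1.38). Mitochondrial antioxidants were lower there for 6 of 8 (median -0.95), with Txnrd2, a thioredoxin reductase, at -1.47 and Prdx3, a peroxiredoxin, at -1.37. In glycolysis 1 of 16 rose and 1 fell with pregnancy in luminal cells, namely Pfkl (1.85) and Eno2 (-2.39), and 4 were lower and 2 higher between the populations of pregnant mice.

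Of 20 regulators of mitochondrial biogenesis, 1 rose and 1 fell with pregnancy in luminal cells (median 0.31). Ppargc1b, a coactivator of respiratory genes, was at 9.55, 9.25, 9.86 and 10.21 in pregnant and at 7.88, 8.27 and 6.30 in virgin luminal arrays. The groups were apart, and it rose by 2.23 (SE 0.40, adjusted p = 0.000903 by limma). Ppargc1a, its relative, rose with pregnancy in MaSC-enriched cells (1.61, SE 0.36, adjusted p = 0.0179), at 6.64, 6.94, 7.76 and 7.36 in pregnant arrays against 5.25, 5.60 and 5.83 in virgin arrays. It was above background on 4 of 4 of these pregnant and 2 of 3 of these virgin arrays. The estrogen-related receptors Esrrb and Esrrg were lower in MaSC-enriched than luminal cells in both states, and Esrrg fell with pregnancy in luminal cells (-1.20, SE 0.25, adjusted p = 0.0034). Esrrb was above background on 0 of 4 pregnant and 1 of 3 virgin MaSC-enriched arrays and on 4 of 4 pregnant and 3 of 3 virgin luminal arrays. Myc was higher in MaSC-enriched cells of pregnant mice (2.03) and of virgin mice (1.37).

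**Figure D4:**
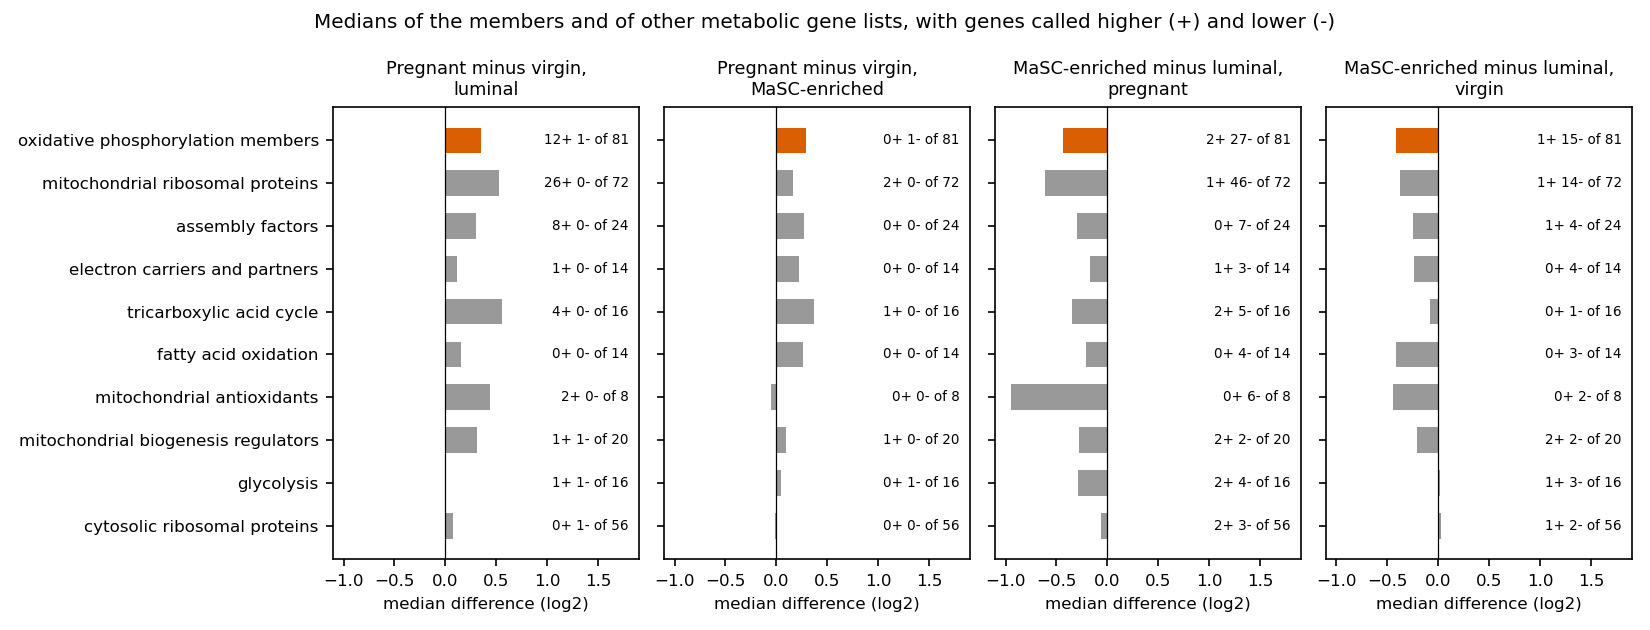
Median difference (log2, x axis) of the 81 tested members and of 9 other gene lists in the 4 comparisons, with the number of genes called higher (+) and lower (-) of those tested. Mitochondrial ribosomal proteins have medians of 0.53 and -0.62 in pregnant against virgin luminal cells and in MaSC-enriched against luminal cells of pregnant mice, and cytosolic ribosomal proteins of 0.08 and -0.06.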

How the data were processed

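RNA of 14 sorted mammary cell pools was hybridised to single-colour Illumina BeadChips. The deposited intensity values were probe signals that the authors had neither background corrected nor scaled between arrays, judged from the values. Each had a detection p-value, which the authors' software, BeadStudio per the submitters' processing notes, gives against negative control probes. A deposited log2 table held normalized values that matched normexp correction with an offset of 50 and quantile normalization, with a median absolute difference of 0.00477 and a maximum of 0.0719. The versions of BeadStudio and limma used by the authors are not given in the sources used here. No deposited sample column was left unused.

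Intensities were background corrected here by normexp (offset 16), whose parameters were estimated through the detection p-values, then quantile normalized and taken to log2 (R 4.3.3, limma 3.58.1). Probes with a detection p under 0.05 on at least 3 arrays were tested. A model with 1 mean per group over all 14 arrays was fitted by lmFit and eBayes (10 residual and 4.74 prior degrees of freedom), and two-sided p-values were adjusted by Benjamini-Hochberg over all 20906 tested probes, with calls at an adjusted p under 0.05. Where a gene had several tested probes, the one with the highest mean stood for it. Gene symbols came from the platform annotation, in which 10378 of 45281 probes had no symbol and 18 had several. The arrays differed in their values, and the p-values measure the spread between pools.

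Members and gene lists were chosen with earlier results of these data known. Named genes were members past the threshold (up to 10 rises and 10 falls in each comparison), fixed isoform sets, core subunits and up to 3 genes of each pathway list, and Ndufb9 was added after its value was seen. Lists of other pathways and cell types were described by counts and medians only. The alternatives covered background correction, scaling, probe filter, probe choice, chip, array weights, the replicate number as a block and leaving out each array. Replicate numbers are shared between groups in the labels, which do not say that a number marks a pool. Deviations of same-numbered arrays from their group means correlated between -0.19 and 0.469, with 3 of 7 pairs above 0.1. The fit was tested on simulated data.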

Additional observations from a re-analysis of the deposited data

Results flagged for a closer look

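In groups of 4 arrays, a value was singled out when its gap to the nearest other array, as a share of the range of the group, exceeded the critical value of Dixon's test. This held for 13 of 104 groups checked, where chance gives about 1 in 20 for a single group. The groups shared arrays and the summaries shared genes, so they were not independent and the count cannot be set against chance. Pregnant luminal replicate 4 stood above the other 3 arrays in 8 of the 13. For the summary of all members it lay at 0.59, against 0.25 to 0.27, with a gap of 0.929 of the range. The summaries of complex I (0.69, gap 0.839) and complex IV (0.55, gap 0.885) gave the same picture. Its log2 intensity was high for Atp5g2 (11.98, against 11.02 to 11.18, gap 0.839), Cox6b2 (7.27, gap 0.954), Cox7b (9.59, gap 0.89), Ndufa7 (13.63, gap 0.86) and Ndufs6 (14.18, gap 0.851). Without this array the median rise of the members in luminal cells was 0.303, and the median difference between the populations of pregnant mice was -0.374. It had the lowest share of probes detected of all 14 arrays, 34.8%. Its ratio of raw intensity at the 90th to the 10th percentile was also the lowest, 7.44, and its array weight was 0.391. The part of these features in its high values was not tested.

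Uqcrfs1 was high on pregnant luminal replicate 1, at 5.90 against 5.21 to 5.29 on the others, with a gap of 0.888. In pregnant MaSC-enriched cells Cox8b was high on replicate 2 (6.26, against 5.04 to 5.22, gap 0.847), and both of these probes were dim. Ndufa5 was high on replicate 3 (12.71, gap 0.873) and Ndufa3 low on it (12.27, gap 0.855). Ndufc2 was low on replicate 1, at 12.52 against 12.84 to 12.86, with a gap of 0.955.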

How the results depend on the processing

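No call of a named member changed its direction under any alternative, within-chip values included. Leaving out 1 array at a time kept all such calls for 7 of 12 named genes in pregnant against virgin luminal cells, for 1 of 1 in MaSC-enriched cells, for 12 of 24 between the populations of pregnant mice and for 6 of 14 in virgin mice. Over every alternative 7, 0, 11 and 3 of them kept their call.

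In the fits with 1 array left out, the counts of called members ran from 8 to 14 for pregnancy in luminal cells and from 1 to 3 in MaSC-enriched cells. They ran from 16 to 34 between the populations of pregnant mice, from 7 to 22 in virgin mice and from 0 to 2 in the interaction. The medians of the same fits ran from 0.303 to 0.415, from 0.202 to 0.377, from -0.45 to -0.374, from -0.514 to -0.291 and from -0.129 to 0.067.

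For pregnancy in luminal cells, array weights called 36 members (31 higher and 5 lower), and the median was 0.705 with median scaling, 0.16 within chip 3 and 0.664 within chip 4. In MaSC-enriched cells 4 were called with no background correction (3 higher and 1 lower) and 0 with the mean of all tested probes of a gene (limma), and median scaling gave a median of 0.124. Between the populations of pregnant mice, cyclic loess called 13 and array weights 49, and the medians were -0.289 with cyclic loess, -0.685 with median scaling and -0.656 within chip 4. In virgin mice 25 were called with no background correction, 7 with cyclic loess and 3 with median scaling, and the median was -0.175 with median scaling and -0.086 within chip 1. The interaction had 1 call with no background correction, the deposited log2 values, median scaling, no filter on dim probes, the mean of probes, chip as a block or array weights. Its median was -0.591 with median scaling, -0.285 within chip 4 and -0.165 when chip was a block. With array weights the calls over all 11350 tested genes moved as well. They were 2839 higher and 2432 lower for pregnancy in luminal cells, and 2994 and 3747 between the populations of pregnant mice. The cause of these changes was not tested.

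Numbers shared between groups were also used as a replicate block, which called 13, 1, 25, 13 and 0 members in the 5 comparisons, and 3 of 7 arrays correlated best with the array of their own number. Signal limits dim members: raw intensities at the 90th percentile were 7.44 to 16.3 times those at the 10th on each array, and array weights ran from 0.254 for virgin MaSC-enriched replicate 3 to 5.89 for virgin luminal replicate 1.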
